A study of Homo sapiens with 4 samples.

Results

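The shared promoter sites of TRIM24 and TRIM28 are the genomic positions near the start of protein-coding genes where a TRIM24 site and a TRIM28 site overlapped in androgen-treated LNCaP cells. A TRIM24 site of the R1881 list on chromosomes 1 to 22 or X was taken when it overlapped a TRIM28 site of the R1881 list by at least 1 bp. Its centre also had to lie within 1 kb of the transcription start site (TSS) of a protein-coding transcript. This selected 1284 of the 9006 TRIM24 R1881 sites on these chromosomes, and 9363 sites are in the list in all. The members were thus selected on the TRIM24 and TRIM28 R1881 lists, and the tags of those lists are given below as a description, with no test.

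LNCaP cells come from a human prostate cancer and respond to androgen. The labels give the genotype WT. TRIM24 was recovered with an antibody to the HA tag from cells stably expressing HA-TRIM24, so the measured TRIM24 is a tagged protein added to the cells' own. TRIM28 was recovered with an antibody to the protein itself. The labels name the HA construct only for the HA samples, whereas the legend of the study names HA-TRIM24 cells for both pull-downs. All cells were kept for 3 days in 5% charcoal-stripped serum, which removes steroid hormones. They then received 10 nM R1881, a synthetic androgen, for 16 h, or ethanol, the vehicle. There was 1 sample of each of the 4 kinds and no input library, so no difference between R1881 and ethanol has a replicate check. Intervals below are 95% intervals over sites and cover counting error only, and sites of a sample are not replicates of a condition.

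TRIM24 is a bromodomain protein that binds histone tails and acts as a coactivator of nuclear receptors. TRIM28, also called KAP1, is a related protein best known as the corepressor that KRAB zinc finger proteins bring to chromatin, and it is also found at promoters of active genes. The promoter of a gene holds its TSS and the short elements around it that general transcription factors and factors such as the ETS family bind.

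The sites were short stretches of 157 bp in the TRIM24 R1881 list. The 6 sequences below come from the members with the most TRIM24 R1881 tags that hold the letters GGTTCGA. These letters are the core of the B box, an element inside transfer RNA (tRNA) genes that the RNA polymerase III factor TFIIIC recognises. Each run is 30 bases of hg19 on the plus strand, with GGTTCGA in capitals.
POLG, chr15:89878344-89878373: agaagattgcaGGTTCGAgtcctgccgcgg
POLR3E, chr16:22308510-22308539: tcgggggcgtgGGTTCGAatcccaccgctg
CTNNA3, chr10:69524310-69524339: ctccccgcgcaGGTTCGAaccctgctcgct
AGBL5, chr2:27273706-27273735: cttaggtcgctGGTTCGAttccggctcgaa
B4GAT1, chr11:66115640-66115669: ttgcacgcgtgGGTTCGAatcccatcctcg
PRMT5, chr14:23398950-23398979: agaagattccaGGTTCGActcctggctggc

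The next 5 show the letters CCGGAAGT, the core recognised by ETS factors. They are the members with this motif that had the most TRIM28 R1881 tags and show the motif in its context, while the 10 strongest TRIM28 members did not hold it. The motif is in capitals, and the strand is that on which it reads 5′ to 3′.
SUB1, chr5:32585652-32585681, minus strand: ctgacagagaaCCGGAAGTgacggcagcca
TPM1, chr15:63340600-63340629, minus strand: ccaggagcagtCCGGAAGTcgcagcctcca
COMMD2, chr3:149470269-149470298, minus strand: ggacacgggcgCCGGAAGTggcgaaggcgg
GTF2H2, chr5:70363540-70363569, plus strand: ttaggggcgccCCGGAAGTcattccgccgc
SF3A3, chr1:38455745-38455774, plus strand: ttccgcgagtgCCGGAAGTgccccgggact

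The last 2 are whole TRIM24 sites, on the plus strand of hg19, at members among the 10 with the most TRIM28 R1881 tags. Neither site overlapped an annotated exon. They are 2 examples of sequence at strong TRIM28 promoter sites, the one at DCP1A rich in CG pairs and the one at RBBP5 with fewer. They do not show the range over such sites.
DCP1A, chr3:53381626-53381782: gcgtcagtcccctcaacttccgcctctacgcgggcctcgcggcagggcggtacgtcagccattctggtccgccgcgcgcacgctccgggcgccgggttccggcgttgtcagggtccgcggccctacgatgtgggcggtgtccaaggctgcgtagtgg
RBBP5, chr1:205091321-205091477: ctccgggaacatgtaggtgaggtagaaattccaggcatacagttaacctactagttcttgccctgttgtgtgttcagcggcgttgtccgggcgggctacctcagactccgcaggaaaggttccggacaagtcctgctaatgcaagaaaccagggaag

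Most shared promoter sites were weak. Strength is given as normalized tags, the tags at a site scaled to 10000000 tags per sample. The libraries held from 11606880 tags (TRIM24, ethanol) to 25145171 tags (TRIM28, ethanol). The recorded threshold of a site, before scaling, was 9 tags in 3 samples and 12 in the deepest, so weaker binding was not detectable at these depths. In the TRIM24 R1881 list the members had a median of 9.30 tags (interquartile range 7.80 to 10.9). In the TRIM28 R1881 list the median was 8.40 (7.0 to 10.5), from 5.6 to 42.9. With ethanol, the 420 members that had a TRIM24 site had a median of 11.2 TRIM24 tags (9.50 to 14.0), and the 1031 that had a TRIM28 site a median of 9.10 TRIM28 tags (7.20 to 11.5). Fewer than 15 tags were found at 1192 members (92.8%) for TRIM24 and at 1204 members (93.8%) for TRIM28.

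**Figure D1:**
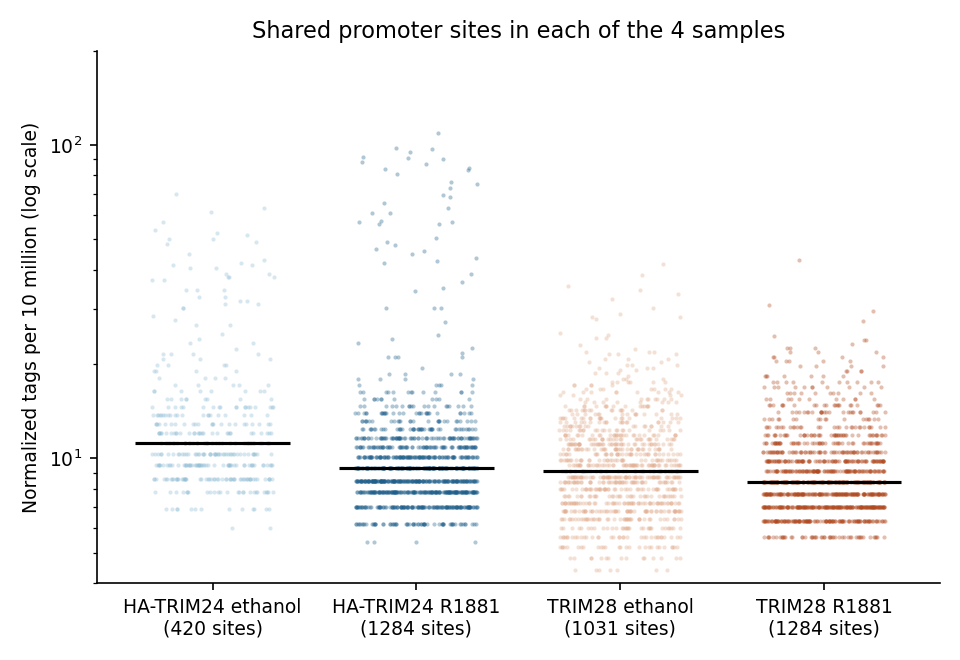
Normalized tags (scaled to 10000000 per sample, log scale) of the shared promoter sites in each of the 4 samples. Each point is a site called in that sample and the black line is the median, which is 11.2, 9.30, 9.10 and 8.40 from left to right. The axis ends at 200 tags and higher values are not drawn. TRIM24 with R1881 has a group of sites near 100 tags, while no TRIM28 value with R1881 exceeds 42.9.

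Strong TRIM24 and strong TRIM28 tags coincided at few members. More than 20 R1881 tags were found at 54 members for TRIM24 and at 23 members for TRIM28, and 6 members passed this level for both. These are 26.1% of the strong TRIM28 members, where 4.21% of all members passed the level for TRIM24, and 11.1% of the strong TRIM24 members, where 1.79% of all members passed it for TRIM28. These 6 lay at YJU2, WDR74, RGPD2, BAIAP2L2, NOTCH2NLA and CABIN1, a set named after its values were seen. Over the 1284 members, the Spearman correlation between TRIM24 and TRIM28 R1881 tags was 0.213. Between R1881 and ethanol it was 0.497 for TRIM24 over 420 members and 0.493 for TRIM28 over 1031 members. These are descriptions over sites that share libraries, base composition and depth. The centres of the overlapping TRIM24 and TRIM28 sites were a median of 46 bp apart, and 695 of the pairs (54.1%) lay within 50 bp.

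The members with many TRIM24 tags with R1881 included POLG, ILF2, POLR3E, CTNNA3, AGBL5, B4GAT1, PLXDC1, PRMT5 and LRP3. They were chosen for their TRIM24 R1881 tags, which favours a higher value with R1881 than with ethanol, so the order of the conditions at these sites is a description only. POLG encodes the mitochondrial DNA polymerase, and its site had 48.2 TRIM24 tags with ethanol and 109.4 with R1881, beside 11.9 TRIM28 tags in both conditions. ILF2, a double-stranded RNA binding protein, had 49.1 and 97.8 TRIM24 tags with ethanol and R1881, and 12.7 and 19.7 TRIM28 tags. POLR3E, a subunit of RNA polymerase III, had 69.8 and 97.0 TRIM24 tags and 14.7 and 9.8 TRIM28 tags.

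The rest of these strong TRIM24 sites had like levels. CTNNA3, a catenin of cell junctions, had 62.9 TRIM24 tags with ethanol and 94.7 with R1881, beside 11.1 and 7.7 TRIM28 tags. AGBL5, an enzyme that trims glutamates from tubulin, had 56.9 and 91.6 TRIM24 tags beside 9.5 and 11.2 TRIM28 tags. B4GAT1, a glycosyltransferase that modifies dystroglycan, had 37.9 and 90.8 TRIM24 tags beside 11.9 and 9.8 TRIM28 tags. PRMT5, a protein arginine methyltransferase, stood at 40.5 and 88.5 TRIM24 tags and at 14.7 and 12.6 TRIM28 tags. In PLXDC1 and LRP3, both cell surface proteins, TRIM24 tags were 37.9 and 50 with ethanol and 90.0 and 86.9 with R1881. TRIM28 tags there were 9.1 and 13.1 with ethanol and 11.9 and 13.4 with R1881.

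Of these 9 members, 7 held GGTTCGA within the 200 bp around their centre, and ILF2 and PLXDC1 did not. Over all members, 45 held these letters on either strand (3.50%, interval 2.63 to 4.66). The share was 1.41% in TRIM24-only promoter sites, the 1705 TRIM24 R1881 promoter sites with no TRIM28 R1881 site. It was 0.716% in the 5164 TRIM28-only promoter sites, 3.46% in the 3234 shared distal sites, which lie beyond 1 kb from a TSS, and 0.658% in 200 bp windows at the TSSs of 19756 protein-coding genes. The letters were added to the search after the strongest TRIM24 R1881 sites had been seen, so these shares and the values of the sites with the letters are descriptions, with no test. They stood in 27 of the 50 members with the most TRIM24 R1881 tags, in 18 of the other 1234, and in 0 of the 50 with the most TRIM28 R1881 tags. Over 20 TRIM24 R1881 tags, the letters stood in 27 of 54 members and in 8 of 24 TRIM24-only promoter sites. Among strong TRIM24 promoter sites they were thus not confined to shared ones. The gene annotation used holds no nuclear tRNA genes, so whether the sites with these letters lie in one was not determined.

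The members with B box letters are described next by their tags in each sample. Their TRIM24 R1881 tags ranged from 6.2 to 109.4 with a median of 45.0, against a median of 9.30 at the other 1239 members. A TRIM24 ethanol site was present at 35 of the 45 (77.8%, interval 63.7 to 87.5) and at 385 of the 1239 others (31.1%, 28.6 to 33.7), with median ethanol tags of 34.5 and 10.3. The median TRIM28 R1881 tags were 9.80 with these letters and 8.40 without. A TRIM28 ethanol site was present at 84.4% of the first group (71.2 to 92.3) and 80.1% of the second (77.8 to 82.3), intervals that overlap. Since most of the group had been seen for its high TRIM24 R1881 tags, nothing is read from its higher TRIM24 values.

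Where a TRIM24 ethanol site existed, TRIM24 tags were higher with R1881 at 30 of the 35 members with B box letters and at 162 of the 385 without. The median log2 ratio of R1881 over ethanol was 0.55 (interquartile range 0.40 to 0.95) in the first group and -0.06 (-0.40 to 0.23) in the second, with the same limit, since a choice by R1881 tags raises this ratio. By position, of the 45, 33 had their centre upstream of the TSS and 36 lay more than 100 bp from it (80.0%), against 557 of the 1239 other members (45.0%).

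**Figure D2:**
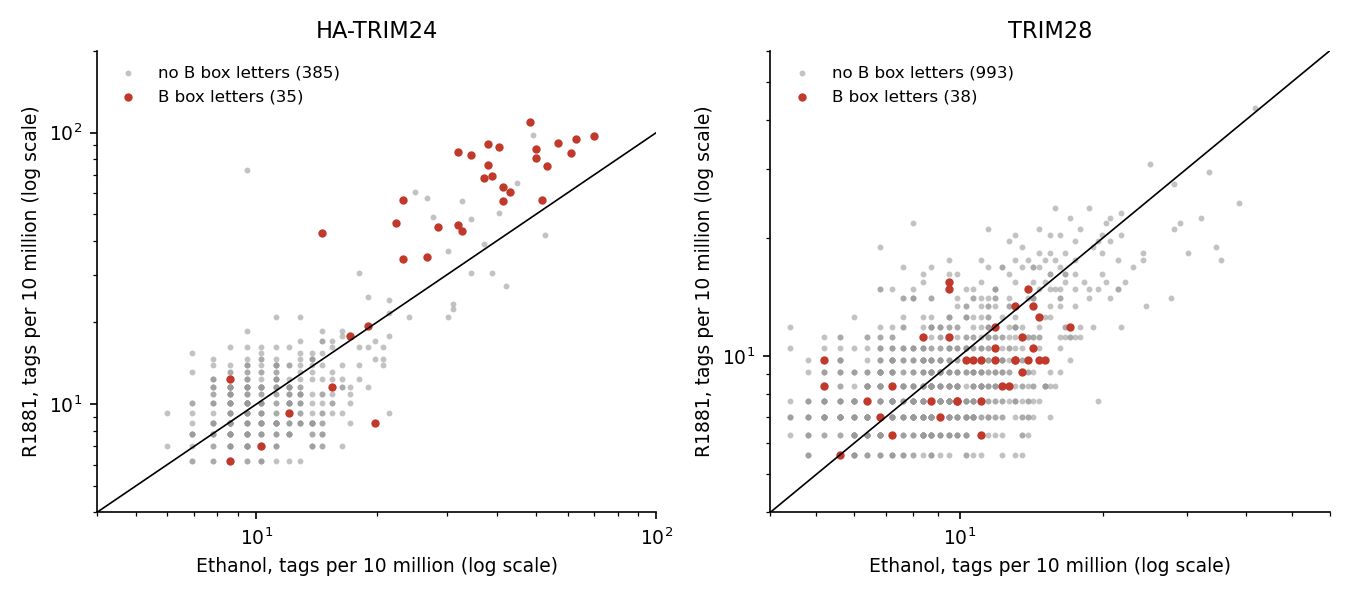
Normalized tags (scaled to 10000000 per sample) with R1881 (y axis, log scale) against ethanol (x axis, log scale) at the shared promoter sites called in both conditions, for HA-TRIM24 on the left and TRIM28 on the right. The line marks equal values, and red points hold the B box letters. The R1881 axis for TRIM24 ends at 200 tags and higher values are not drawn. There 30 of the 35 red points lie above the line, while for TRIM28 the red points lie within the range of the grey points.

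A few members overlapped genes of small nuclear or other structured RNAs. Of the 1284 members, 9 (0.701%, interval 0.369 to 1.33) overlapped an annotated small RNA gene: 3 of miRNAs, 3 of small nuclear RNAs, 1 of a small nucleolar RNA, 1 of a ribozyme and 1 of more than 1 type. The share was 0.822% of all TRIM24 R1881 sites, 0.411% of TRIM24-only promoter sites (0.199 to 0.845) and 0.959% of shared distal sites. These values lie within the members' interval. TRIM28-only promoter sites had 0.271% (0.162 to 0.455), which lies below it, although the intervals overlap. Among the 54 members over 20 TRIM24 R1881 tags, 4 overlapped such a gene (7.41%, 2.92 to 17.6). The WDR74 site overlapped RNU2-2P, a gene of the U2 spliceosomal RNA family, and had the highest level of all members in its weakest sample. Its TRIM24 tags were 37 with ethanol and 38.8 with R1881, and its TRIM28 tags 41.8 and 42.9. The site assigned to CCDC107 overlapped RMRP, the RNA of the RNase MRP ribozyme, with TRIM24 tags of 26.7 and 57.4 and TRIM28 tags of 14.7 and 14.8. The MED16 site, a weak one, overlapped RNU6-9, a U6 gene, with TRIM24 tags of 13.8 and 14.7 and TRIM28 tags of 6.8 and 8.4.

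The 10 strongest TRIM28 members showed a different pattern, with TRIM24 R1881 tags between 10.1 and 14.0 at RAB37, DCP1A, PDE4DIP, RBBP5 and EIF2D. RAB37, a small GTPase of secretion, had 33.4 TRIM28 tags with ethanol and 29.5 with R1881, beside 8.6 and 10.1 TRIM24 tags. DCP1A, a cofactor of mRNA decapping, had 28.2 and 27.4 TRIM28 tags beside 19.0 and 11.6 TRIM24 tags.

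RBBP5, a core subunit of the complexes that methylate histone H3 lysine 4, followed with 18.7 and 23.9 TRIM28 tags beside 12.9 and 11.6 TRIM24 tags. EIF2D, a translation initiation factor, had 20.7 and 22.5 TRIM28 tags beside 10.3 and 11.6 TRIM24 tags. CABIN1, an inhibitor of calcineurin, had 17.1 and 22.5 TRIM28 tags beside 24.1 and 21.0 TRIM24 tags. PDE4DIP, a centrosomal protein, had 38.6 and 24.6 TRIM28 tags beside 12.1 and 14.0 TRIM24 tags, and RGPD2, of the RANBP2-like family, had 15.9 and 23.9 beside 30.2 and 36.5. PDE4DIP, RGPD2, NOTCH2NLA, GTF2H2 and CDK11B have near-identical copies elsewhere in the genome, so reads could be split or misplaced between copies and their tags are uncertain.

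The members with the highest level in the weakest of the 4 samples, after WDR74, were PAXBP1, CABIN1, RGPD2, RBBP8, RPS29, CCDC107, BCL9, HJV and GTF2H2. PAXBP1, a partner of PAX transcription factors, had 38.8 and 30.3 TRIM24 tags with ethanol and R1881 and 20.7 and 19.7 TRIM28 tags. RBBP8, which starts DNA end resection in repair, had 31.0 and 22.5 TRIM24 tags and 15.5 and 16.2 TRIM28 tags. BCL9, a coactivator of Wnt signalling, had 16.4 and 14.0 TRIM24 tags and 21.9 and 20.4 TRIM28 tags. At these 3 sites TRIM24 was lower with R1881, whereas RPS29, of the small ribosomal subunit, had 25 and 60.5 TRIM24 tags and 16.3 and 14.8 TRIM28 tags. HJV, the iron regulator hemojuvelin, had 38.8 and 69.1 TRIM24 tags and held the B box letters. GTF2H2, a subunit of the general factor TFIIH whose ETS letters are printed above, had 13.8 and 14.7 TRIM24 tags and 24.3 and 17.6 TRIM28 tags.

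The ethanol lists were not used to choose the members, and they show how many of these promoter sites were also called without androgen. A TRIM28 ethanol site overlapped 1031 of the 1284 members (80.3%, interval 78.0 to 82.4), beside 53.3% of all TRIM24 R1881 sites. Members have a TRIM28 R1881 site by the rule and other TRIM24 sites may lack one, so nothing is read from that gap. A TRIM24 ethanol site overlapped 420 members (32.7%, 30.2 to 35.3), where the share of all TRIM24 R1881 sites was 25.5%. Both were found at 363 members (28.3%, 25.9 to 30.8), which were thus called in all 4 samples, beside 18.0% of all TRIM24 R1881 sites, with the same limit. Only a TRIM28 ethanol site was found at 668 members (52.0%), only a TRIM24 ethanol site at 57 (4.44%) and neither at 196 (15.3%, 13.4 to 17.3). The TRIM28 ethanol list held 57690 sites on these chromosomes from the deepest library and the TRIM24 ethanol list 4954, so the shares of the 2 proteins are not on one scale of detection.

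For each protein, members were called with ethanol more often than the promoter sites of that protein alone. Their share with a TRIM24 ethanol site exceeded that of TRIM24-only promoter sites, 14.4%, by 18.3 percentage points (interval 15.2 to 21.3). Taken by their TRIM28 R1881 sites, 82.0% of the members overlapped a TRIM28 ethanol site, against 59.7% of TRIM28-only promoter sites and 62.6% of all TRIM28 R1881 sites. The difference to TRIM28-only promoter sites was 22.3 points (19.7 to 24.7).

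The TRIM24 ethanol shares rose with strength, and the differences were present within each class of strength compared. Strength was not equal within a class. The top class has no upper limit, and over 20 TRIM24 R1881 tags there were 54 members and 24 TRIM24-only promoter sites. Whether strength accounts for the differences was not tested. The promoter sites were divided at 7.8 and 9.3 TRIM24 R1881 tags. A TRIM24 ethanol site was found at 21.8% of members and 8.19% of TRIM24-only promoter sites up to 7.8 tags, at 23.1% and 13.7% up to 9.3 tags, and at 48.2% and 25.3% above. With TRIM28 promoter sites divided by their TRIM28 R1881 tags in the same way, the TRIM28 ethanol difference to TRIM28-only promoter sites was 20.9 points (15.8 to 25.5) in the middle class and 12.5 points (8.59 to 16.2) in the top class. It was not computed in the lowest class.

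Against shared distal sites the members differed in TRIM28, while the TRIM24 difference depended on the choices made. A TRIM28 ethanol site was found at 67.7% of shared distal sites, 12.6 points below the members (interval 9.81 to 15.2). A TRIM24 ethanol site was found at 34.7% of them, and the difference of members minus shared distal sites was -2.01 points (-5.02 to 1.06). That difference turned positive, to 2.99 points (0.134 to 5.86), when TSSs of all transcripts were used, and was -7.75 points (-11.1 to -4.27) with an overlap of 50% of the shorter site. Shared distal sites reached far higher counts, up to 7328.4 TRIM24 tags and 12767.0 TRIM28 tags with R1881. At up to 7.8 TRIM24 tags the TRIM24 ethanol share was 21.8% of members (18.0 to 26.0) and 13.8% of shared distal sites (11.6 to 16.4).

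**Figure D3:**
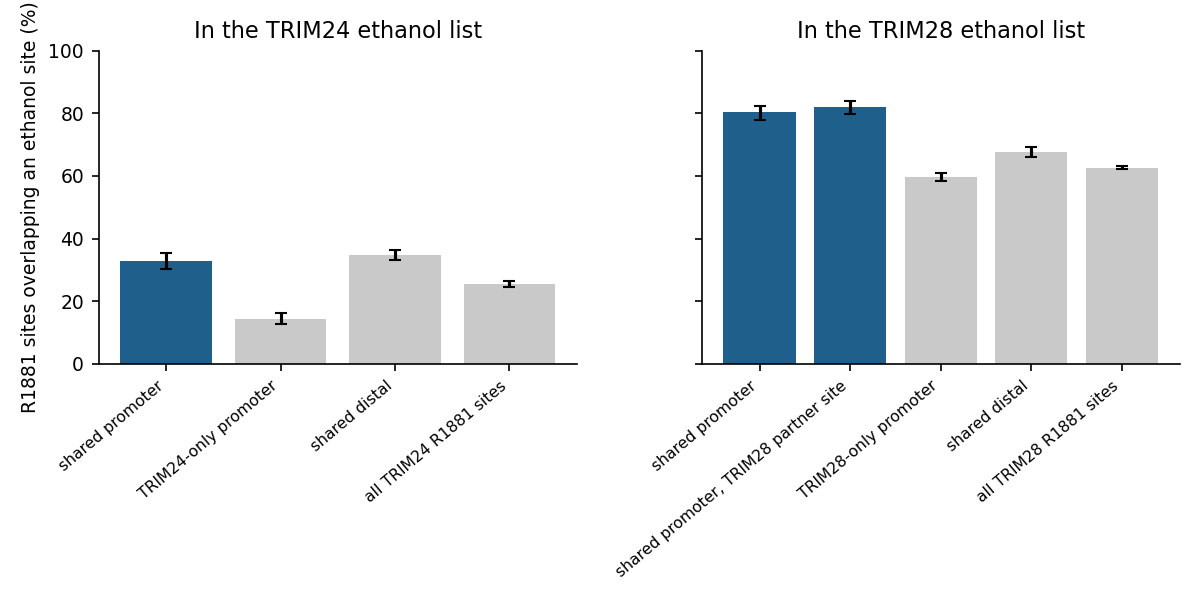
Share (%) of R1881 sites that overlapped a site of the TRIM24 ethanol list (left) or the TRIM28 ethanol list (right), by class of site, with Wilson 95% intervals as error bars. Blue bars are the shared promoter sites, counted by their TRIM24 site or by their overlapping TRIM28 site, and grey bars the other classes. The blue bars stand at 32.7% on the left and at 80.3% and 82.0% on the right, above TRIM24-only promoter sites on the left and TRIM28-only promoter sites on the right.

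The same rule applied to the ethanol lists gave 1144 promoter sites shared by TRIM24 and TRIM28 without androgen. Of the members, 365 overlapped one of them (28.4%), which is 31.9% of the ethanol set. Of the ethanol shared promoter sites, 526 (46.0%) overlapped any TRIM24 R1881 site, 688 (60.1%) any TRIM28 R1881 site, and 305 (26.7%) neither.

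Where a member was called in both conditions, its tags differed little between R1881 and ethanol, but the calling itself limits this ratio. Members without an ethanol site have no ratio. The lowest called ethanol sites had 6.0 TRIM24 and 4.0 TRIM28 tags, while the members' R1881 medians were 9.30 and 8.40. Few members could thus reach a 2-fold change, so nothing is read from the small medians or from lower 2-fold shares than in other sets. For TRIM24 the median log2 ratio of R1881 over ethanol was -0.03 (interquartile range -0.40 to 0.32, 420 members). TRIM24 tags were over 2-fold higher with R1881 at 15 members (3.57%), against 5.96% of all TRIM24 R1881 sites with an ethanol site, and over 2-fold lower at 7. For TRIM28 the median was -0.06 (-0.35 to 0.27, 1031 members). TRIM28 tags were over 2-fold higher at 12 members (1.16%), against 4.53% of all shared sites with a TRIM28 ethanol site, and over 2-fold lower at 10. Measured by the fold of each site over its surrounding 10 kb, the TRIM28 median was 0.09, so its direction depends on the measure. At shared distal sites the TRIM28 median was 0.15, and 6.12% were over 2-fold higher with R1881.

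The members with the largest TRIM24 ratio, named after their values were seen, included TRIM3, SMARCC2, SHF, TRIM41 and RPS29. TRIM3, a ubiquitin ligase of the TRIM family, had 9.5 TRIM24 tags with ethanol and 73.0 with R1881 (log2 ratio 2.94), and 6.0 and 12.6 TRIM28 tags (1.07). SMARCC2, a core subunit of the SWI/SNF remodeller, had 14.6 and 42.7 TRIM24 tags (1.55), with a TRIM28 site only with R1881, at 9.8 tags. SHF, a signalling adaptor, had 31.9 and 84.6 TRIM24 tags (1.41), and TRIM41 had 23.3 and 56.7 (1.28). SMARCC2, SHF and TRIM41 held the B box letters, and TRIM3 and RPS29 did not.

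Other members had the largest TRIM28 ratios, likewise named after the fact. GOLM2, a Golgi membrane protein, had 6.8 TRIM28 tags with ethanol and 19.0 with R1881 (log2 ratio 1.48), while its TRIM24 tags were 19.8 and 17.1. BAIAP2L2, which shapes membrane protrusions, had 8.0 and 21.8 TRIM28 tags (1.45) and 31.0 and 23.3 TRIM24 tags. In the other direction, ADAT2, a tRNA deaminase, had 19.5 and 7.7 TRIM28 tags (-1.34), and SEC13, of the COPII coat and the nuclear pore, had 13.1 and 5.6 (-1.23). Their TRIM24 tags were 12.1 and 11.6 for ADAT2 and 10.3 and 11.6 for SEC13.

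Of the 196 members with no ethanol site in either list, the 5 with the most TRIM24 R1881 tags were CDK11B, FADS3, METTL9, TCF25 and PGC. CDK11B, a cyclin-dependent kinase of transcription and splicing, and FADS3, of the fatty acid desaturase family, both had 16.3 TRIM24 and 6.3 TRIM28 tags with R1881. METTL9, a histidine methyltransferase, had 16.3 and 10.5. TCF25 had 15.5 and 7.0, and PGC, the gastric protease precursor pepsinogen C, had 14.7 and 9.8. All 5 TRIM24 values lay under 20 tags. They also lay above the members' upper quartile of 10.9, but the 5 were chosen for these tags, so nothing is read from that.

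Members sat closer to the TSS than single-protein promoter sites. The centre was within 100 bp of the nearest protein-coding TSS at 691 members (53.8%, interval 51.1 to 56.5), and the median signed distance was -17 bp (interquartile range -123 to 61, negative values being upstream). The share within 100 bp exceeded that of TRIM24-only promoter sites, 44.6%, by 9.24 points (5.62 to 12.8) and that of TRIM28-only promoter sites, 42.6%, by 11.2 points (8.18 to 14.3). The centre lay upstream of the TSS at 56.9% of members and at 41.4% of TRIM24-only promoter sites, a difference of 15.5 points (11.9 to 19.1). Against the 54.5% of TRIM28-only promoter sites the difference was 2.40 points (-0.643 to 5.41). TRIM24-only promoter sites thus had their median at 32 bp downstream, while TRIM28-only sites shared the median of -17 bp.

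**Figure D4:**
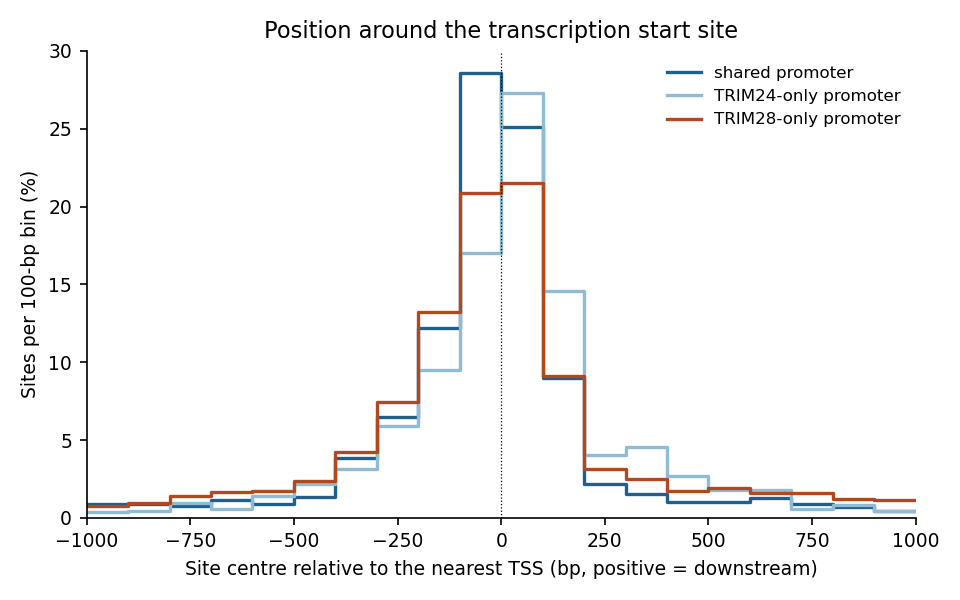
Share (%) of sites per 100-bp bin against the distance of the site centre from the nearest protein-coding TSS (bp, positive values downstream), for shared, TRIM24-only and TRIM28-only promoter sites. Shared promoter sites peak just upstream of the TSS at 28.6%, TRIM24-only promoter sites peak just downstream, and TRIM28-only promoter sites have the broadest distribution.

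By annotation, 454 members (35.4%) had their centre outside every protein-coding transcript, 440 (34.3%) in an untranslated region, 286 (22.3%) in an intron and 104 (8.10%) in a coding exon. The share outside transcripts was 23.3% for TRIM24-only promoter sites. Coding exons held 13.8% of TRIM24-only and 8.23% of TRIM28-only promoter sites. A divergent pair of protein-coding TSSs at most 1 kb apart, from which genes are read in opposite directions, was found at 148 members (11.5%, 9.89 to 13.4). The difference to TRIM24-only promoter sites was -1.44 points (-3.78 to 0.963), and to TRIM28-only promoter sites 1.79 points (-0.0500 to 3.80). Pairs of this kind held members at AURKA with CSTF1 and at MCM7 with AP4M1.

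The members were rich in G and C, as most human promoters are. Their 200 bp windows had a median GC content of 68.2% (interquartile range 61.0 to 74.0), against 70.0% in TRIM24-only promoter sites, 65.0% in TRIM28-only promoter sites, 64.0% in TSS windows and 44.5% in shared distal sites. A GC content over 50% together with an observed over expected CpG ratio over 0.6, the usual marks of a CpG island, was found at 1078 members (84.0%, 81.8 to 85.9). The share was 87.2% in TRIM24-only promoter sites, 71.3% in TRIM28-only promoter sites and 9.52% in shared distal sites.

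ETS letters were more frequent in members than in any other class compared. CCGGAAGT stood in 92 of the 1284 windows (7.17%, interval 5.88 to 8.71). The share was 3.64% in TRIM24-only promoter sites, a difference of 3.53 points (1.90 to 5.26), and 3.68% in TRIM28-only promoter sites, a difference of 3.49 points (2.09 to 5.10). It was 4.61% in TSS windows and 0.618% in shared distal sites. Members with and without these letters did not differ detectably in other readouts. The median tags were 9.3 for TRIM24 and 8.4 for TRIM28 with R1881 in both groups. A TRIM24 ethanol site was found at 35.9% with the letters (26.8 to 46.1) and at 32.5% without (29.9 to 35.2).

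Other promoter motifs had intervals of the difference to TRIM24-only promoter sites that held 0 for the SP and KLF, E-box, NRF1, YY1, CCAAT and TATA letters, while 4 of these 6 differed from TRIM28-only promoter sites. The SP and KLF letters CCCCGCCCC stood in 6.85% of members, 7.74% of TRIM24-only and 7.36% of TRIM28-only promoter sites, and in 16.3% of TSS windows. The E-box CACGTG stood in 6.85% of members, 6.28% of TRIM24-only and 4.92% of TRIM28-only promoter sites, the last a difference of 1.93 points (0.531 to 3.55). The NRF1 letters GCATGCGC stood in 2.18%, 2.46% and 2.32%. The YY1 letters AAGATGGCG stood in 2.73%, 3.28% and 1.61%, and the difference to TRIM28-only promoter sites was 1.12 points (0.269 to 2.20). CCAAT stood in 13.6% of members, 12.6% of TRIM24-only promoter sites, 17.3% of TRIM28-only promoter sites and 25.4% of TSS windows, and TATAAA in 2.34%, 2.11%, 3.85% and 6.89%. Members minus TRIM28-only promoter sites was -3.72 points (-5.78 to -1.50) for CCAAT and -1.52 points (-2.41 to -0.421) for TATAAA.

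Motifs of the androgen-responsive enhancers of prostate cells were rare in members. The forkhead letters GTAAACA, bound by FOXA1, stood in 1.95% of members and 15.9% of shared distal sites, a difference of -14.0 points (interval -15.4 to -12.5). The androgen response element, allowing 1 mismatch, stood in 4 members (0.312%, 0.121 to 0.798) and in 1.95% of shared distal sites. The AP-1 letters TGANTCA stood in 2.88% and 10.1%. By contrast, the CTCF motif, allowing 3 mismatches, was rare in both classes. It stood in 2 members (0.156%) and in 0.186% of shared distal sites, a difference of -0.0298 points (-0.276 to 0.393). In TSS windows the forkhead share was 1.40% and the androgen response element share 0.243%.

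**Figure D5:**
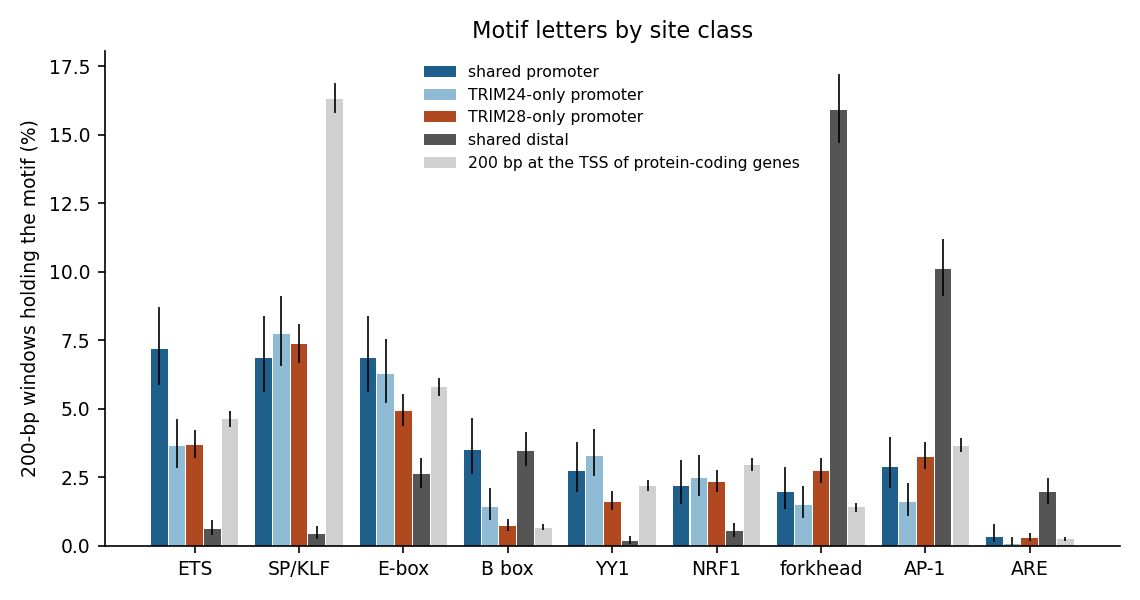
Share (%) of 200-bp windows that hold the letters of each motif on either strand, for shared promoter sites, the 3 other site classes and windows at the TSSs of protein-coding genes, with Wilson 95% intervals as error bars. Shared promoter sites have the highest ETS share, 7.17%, a B box share of 3.50% close to that of shared distal sites, and a forkhead share of 1.95% where shared distal sites have 15.9%.

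At the level of genes, 1442 of the 19748 protein-coding genes on these chromosomes had a member within 1 kb of a TSS (7.30%). A TRIM24 R1881 promoter site of any kind was found at 16.4% of genes and a TRIM28 R1881 promoter site at 31.5%. Of the 3238 genes with a TRIM24 promoter site, 1442 (44.5%) held a shared one, and 35 genes held 2 or more members. The share of genes with a member was 11.1% of 2060 on chromosome 1, 1.83% of 437 on chromosome 22 and 0.696% of 862 on chromosome X. TRIM24 R1881 promoter sites of any kind numbered 405, 38 and 15 there, and 49.9%, 18.4% and 33.3% of them were shared. The contrast is thus not confined to shared sites. A site near a TSS does not show that the gene responds to either protein, and no expression data were used.

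Several lists of genes that most cells use had a larger share of genes with a member than the 7.30% of all genes, although most intervals are wide. The 7 lists of this kind also had larger shares of genes with any TRIM24 or TRIM28 promoter site, from 26.0% to 41.4% and from 49.4% to 68.6%, so the larger share is not particular to shared sites. A member was found at 16 of 78 mitochondrial ribosomal protein genes (20.5%, interval 13.0 to 30.8), which build the ribosome of mitochondria. MRPL34 had TRIM24 and TRIM28 R1881 tags of 14.7 and 8.4, MRPL1 had 11.6 and 8.4, and MRPS14 had 11.6 and 11.9. None of these 3 had a TRIM24 ethanol site, as is the case for most members. Over the list 2 of 15 sites had one and 14 of 15 had a TRIM28 ethanol site, beside 32.7% and 80.3% of all members. With 15 sites nothing is read from these counts. Of the 87 cytoplasmic ribosomal protein genes, 12 (13.8%, 8.07 to 22.6) had a member, with median R1881 tags of 8.15 for TRIM24 and 7.70 for TRIM28. Of the 36 that had any TRIM24 promoter site, these 12 are 33.3%, where the share over all genes was 44.5%, and for the mitochondrial ribosomal protein genes it was 16 of 25 (64.0%). RPS29, described above, stood apart from RPL22 and RPL23, whose TRIM24 R1881 tags were 10.9 and 9.3.

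Splicing and respiration genes had like shares. A member was found at 15 of 83 splicing genes (18.1%, 11.3 to 27.7). Of these 15 sites, 6 were called in all 4 samples, beside 28.3% of all members, and with so few sites nothing is read from this. SNRPB2, a U2 snRNP protein, was even across the samples, with TRIM24 tags of 11.2 and 11.6 and TRIM28 tags of 10.7 and 10.5 with ethanol and R1881. SNRPD1, of the Sm core, had 9.5 and 10.9 TRIM24 tags and 8.4 and 9.8 TRIM28 tags. SF3A3, a subunit of the U2 snRNP whose ETS letters are printed above, had no TRIM24 ethanol site, 10.9 TRIM24 tags with R1881, and TRIM28 tags of 16.7 and 16.2. Of 87 oxidative phosphorylation genes, 15 had a member (17.2%, 10.7 to 26.5), and NDUFC2 and its readthrough gene count the same site. NDUFC2, an accessory subunit of complex I, had 9.5 and 11.6 TRIM24 tags and 10.7 and 8.4 TRIM28 tags.

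The genes of protein synthesis and turnover gave shares between 12% and 14.5%. Members were found at 8 of 55 translation initiation factor genes (14.5%, 7.56 to 26.2), 5 of 35 aminoacyl-tRNA synthetase genes (14.3%, 6.26 to 29.4) and 6 of 50 proteasome genes (12%, 5.62 to 23.8), and the last 2 intervals hold the 7.30% of all genes. TARS2, a mitochondrial threonyl-tRNA synthetase, had 10.3 and 9.3 TRIM24 tags and 16.3 and 20.4 TRIM28 tags. AARS2, its alanyl counterpart, had 11.2 and 12.4 TRIM24 tags and 11.1 and 8.4 TRIM28 tags. PSMB3, a subunit of the proteasome core, had 28.4 and 45.0 TRIM24 tags and 9.9 and 7.7 TRIM28 tags at a site centred at -914 bp that held the B box letters.

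Among regulators of chromatin and transcription, a member was found at 13 of 91 chromatin regulator genes (14.3%, 8.54 to 22.9). Of these 91 genes, 24.2% had any TRIM24 R1881 promoter site and 51.6% any TRIM28 one, also above the 16.4% and 31.5% of all genes. The 7 of 68 genes of RNA polymerase II and Mediator (10.3%, 5.08 to 19.8) were near the share of all genes. KMT2A, a histone H3 lysine 4 methyltransferase, had 21.5 and 21.7 TRIM24 tags and 14.3 and 8.4 TRIM28 tags. SMARCD2, of SWI/SNF, had 10.3 and 14.7 TRIM24 tags and 18.3 and 15.5 TRIM28 tags. MED23, a Mediator subunit, had 8.6 and 11.6 TRIM24 tags and 18.7 and 14.8 TRIM28 tags. Of 82 histone genes, 4 had a member (4.88%, 1.91 to 11.9), an interval that holds the 7.30% of all genes. None of these was called in all 4 samples, beside 28.3% of all members, and with so few sites nothing is read from this.

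Zinc finger genes are of interest because KRAB zinc finger proteins recruit TRIM28. A member was found at 66 of 512 ZNF genes (12.9%, interval 10.3 to 16.1), beside 7.30% of all genes. A TRIM24 R1881 promoter site of any kind was found at 26.6% of them and a TRIM28 one at 44.7%, against 16.4% and 31.5% of all genes. Of the ZNF genes with a TRIM24 promoter site, 48.5% held a shared one, against 44.5% over all genes. The larger share is thus not particular to shared sites. Many ZNF genes stand in tandem clusters, and the 66 genes shared 63 sites. Of these sites, 21 had a TRIM24 and 50 a TRIM28 ethanol site, close to the 32.7% and 80.3% of all members. Their median R1881 tags were 8.50 for TRIM24 and 7.70 for TRIM28. ZNF839 had 43.1 and 60.5 TRIM24 tags and 13.5 and 9.1 TRIM28 tags, with B box letters. ZNF274, which brings the methyltransferase SETDB1 to other ZNF genes, had 10.3 and 13.2 TRIM24 tags and 9.1 and 7.7 TRIM28 tags.

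DNA repair, replication and mitotic genes gave 8 of 46 (17.4%, 9.09 to 30.7), 2 of 48 (4.17%, 1.15 to 14.0) and 4 of 51 (7.84%, 3.09 to 18.5). The last 2 intervals hold the 7.30% of all genes. Of the DNA repair genes, 28.3% had any TRIM24 R1881 promoter site and 45.7% any TRIM28 one, also above the 16.4% and 31.5% of all genes. ATR, the kinase of the replication stress checkpoint, had 9.5 and 16.3 TRIM24 tags and 13.1 and 7.0 TRIM28 tags. PLK1, a mitotic kinase, had no TRIM24 ethanol site, 9.3 TRIM24 tags with R1881, and TRIM28 tags of 10.7 and 14.1. The site of NUF2, a kinetochore protein, lay nearest the divergent gene RGS5, and its tags were lower with R1881 for both proteins, 14.6 and 7.8 for TRIM24 and 35.4 and 17.6 for TRIM28. The mitotic genes AURKB, PBK and TPX2 had no TRIM24 promoter site in either condition.

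Among genes of androgen response, 5 of 36 had a member (13.9%, 6.08 to 28.7), an interval that holds the 7.30% of all genes. Any TRIM24 R1881 promoter site was found at 38.9% of them and any TRIM28 one at 61.1%, against 16.4% and 31.5% of all genes. Of those with a TRIM24 promoter site, 35.7% held a shared one, against 44.5% over all genes. KLK2, a kallikrein protease induced by androgen, had no TRIM24 ethanol site, 11.6 TRIM24 tags with R1881, and TRIM28 tags of 7.2 and 7.7. Of 12 genes of prostate lineage factors, 1 had a member (8.33%, 1.49 to 35.4). TRIM28 itself had a member with 7.8 TRIM24 tags with R1881 and 8.7 and 9.1 TRIM28 tags with ethanol and R1881. TRIM24 had TRIM24 promoter tags of 15.5 and 14.0 and TRIM28 tags of 7.2 and 6.3 but no overlapping pair that met the rule, and SPOP had no TRIM24 promoter site. Of 18 genes of the SPOP pathway and TRIM partners, 3 had a member (16.7%, 5.84 to 39.2). Of the 77 TRIM family genes 5 had one (6.49%, 2.81 to 14.3). Both intervals hold the 7.30% of all genes.

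None of 391 olfactory receptor genes had a member (Wilson upper limit 0.973%). A TRIM24 R1881 promoter site of any kind was found at 0.256% of them and a TRIM28 one at 1.02%, so the lack is not particular to shared sites. None of 19 marker genes of other lineages had a member either, but the upper limit of 16.8% lies above the 7.30% of all genes. Among 149 keratin and keratin-associated genes there was 1, at KRTAP9-6 (0.671%, 0.119 to 3.70). Any TRIM24 R1881 promoter site was found at 1.34% of these genes and any TRIM28 one at 4.03%. Of 82 chaperone genes, 6 had a member (7.32%, 3.40 to 15.1), close to the share of all genes. HSPA6, an inducible chaperone, had the strongest, with 41.4 and 62.9 TRIM24 tags, 8.4 and 11.2 TRIM28 tags and the B box letters.

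The limits of the rule fell within continuous distributions. The members farthest from a TSS were DNPEP at 996 bp, with 7.0 TRIM24 and 9.8 TRIM28 R1881 tags, and LNX1 at 995 bp, with 14.0 and 14.8. The nearest shared sites beyond the limit included C9orf152 at 1012 bp, with 8.5 and 14.8, and LIMCH1 at 1014 bp, with 10.1 and 6.3. Members overlapping by 1 bp were PRCC, RPL29 and TFAP2C, with TRIM24 R1881 tags of 9.3, 7.8 and 7.8 and TRIM28 R1881 tags of 7.7, 9.1 and 6.3. AQR, MRPL16 and NAT10 missed an overlap by 1 bp, with TRIM24 R1881 tags of 9.3, 8.5 and 7.8. A TRIM28 R1881 site lay within 200 bp of 395 of the 1705 TRIM24-only promoter sites (23.2%).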

How the data were processed

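The members and the gene lists were chosen with earlier results of these data known. Per the labels and file headers, the authors aligned reads to hg19 with BWA 0.6.1 and called sites in each sample with HOMER 4.1, without input, at a false discovery rate of 0.001, with a density at least 4-fold that of the 10 kb around the site (Poisson p up to 1e-04). The deposited normalized tag count is a signal that the authors scaled to a total of 10000000 tags in each sample. The deposited score counts at most 1 tag per base and is not scaled for depth. The deposited fold is the ratio of tag density at the site to the surrounding 10 kb, and the deposited p-value, not used further here, is the Poisson p of that ratio.

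Sites were compared by an overlap of at least 1 bp, taking the strongest overlapping site. Centres were placed on GENCODE release 44 on GRCh37, the assembly of hg19. Motifs were searched on both strands of the 200 bp around centres. The androgen response element and CTCF consensus sequences came from the study's motif table. Shares have Wilson and differences Newcombe 95% intervals, with no p-value. The genes named were the 10 members with the most TRIM24 or TRIM28 R1881 tags, the 10 with the highest lowest value of 4, the 5 strongest without ethanol sites, up to 4 of each gene list, the genes of the study, and those at the limits of the rule. Others are said to be named after their values were seen. Python 3.11.15, numpy 2.4.6, pandas 2.3.3, pysam 0.24.0 and matplotlib 3.10.9 were used, and 7 functions were checked on simulated data. Some genes that meet these rules are not reported here.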

Additional observations from a re-analysis of the deposited data

How the results depend on the processing

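No paired analysis was possible because each condition has 1 sample. The excess of members with a TRIM24 ethanol site over TRIM24-only promoter sites, and the excesses with a TRIM28 ethanol site over TRIM28-only promoter and shared distal sites, kept their direction with an interval above 0 under every alternative tried. The TRIM24 difference to shared distal sites did not keep its side of 0. It was -7.75 points with an overlap of 50% of the shorter site, -5.46 with centres at most 100 bp apart and -10.0 in the lists cut at their median tags, all with intervals below 0. It was 2.99 with TSSs of all transcripts, with an interval above 0 (0.134 to 5.86), and, with intervals that hold 0, 0.330 without sites over 100 tags and 4.51 in the middle class of strength. The cause was not tested.

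With an overlap of 50%, the shares of members with a TRIM24, a TRIM28 or both ethanol sites were 27.1%, 68.6% and 21.4%, and with centres at most 100 bp apart 29.5%, 72.1% and 24.5%, since the stricter overlap also removes ethanol sites. With TSSs of all transcripts the TRIM24 share was 36.0%. In the lists cut at their median tags 500 members were left, since fewer sites enter, and the median TRIM24 log2 ratio was 0.05. The median TRIM28 log2 ratio became 0.09 with fold over the surrounding 10 kb. The share of genes with a member was 6.69% within 500 bp, 7.90% within 2 kb, 6.20% with the most upstream TSS per gene and 6.04% with centres at most 100 bp apart.

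Motif shares rose and fell with the length searched. The ETS difference to TRIM24-only promoter sites was 1.53 points in 100 bp and 2.32 in 400 bp, with intervals above 0, and the B box difference, whose letters were chosen on these sites, 2.14 and 1.72. Without the members that hold the B box letters, an alternative chosen after the data were seen, the TRIM24 ethanol share was 31.1% and the median TRIM24 log2 ratio -0.06. The thresholds of 9 to 12 tags apply before scaling and are not on the scale of the normalized tags. In normalized tags, the lowest called sites had 4.0 to 6.0 by sample, and the medians of the members were 8.40 to 11.2. Most members are thus near the limit of detection, so a missing site does not show that binding was absent.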
